A study of Mus musculus with 2 samples.

Results

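Neurons release transmitter by fusing small vesicles with the presynaptic membrane, and the genes described here encode the proteins of that machinery. They are the synaptic vesicle and presynaptic release genes, 38 of the 24411 genes counted, chosen by symbol: 9 for proteins of the vesicle itself, 6 synaptotagmins, 9 for SNAREs and the proteins that handle them, 10 for the active zone and vesicle priming, and 4 for endocytosis. All 38 had a row in both count files. None was chosen for its value, although the list was drawn up with earlier results of these data known.

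The genes were measured by bulk RNA-seq after laser capture microdissection (LCM) of stained cryosections from fresh frozen mouse brain at embryonic day 16.5. There was 1 library from the subventricular zone (SVZ), the germinal layer where progenitors of the cortex divide, and 1 from the cortex, where newly made neurons settle. No strain, sex, genotype or treatment is given in the labels, and neither is the number of embryos cut. The study cut them as a reference for BALI, its method of adding barcodes by light, on a neighbouring section.

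Vesicles are filled with transmitter, docked at the active zone, primed, and fused when calcium enters. Fusion is driven by SNARE proteins on the vesicle and the plasma membrane, timed by synaptotagmins and complexins, and followed by retrieval of the membrane through endocytosis. Newborn cortical neurons begin to transcribe many of these genes while they migrate and extend axons, before they form mature synapses, and several members have paralogues that act in membrane traffic in other cell types.

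Levels are given as CPM, the reads of a gene per 1000000 reads assigned to genes. The SVZ library held 51435667 such reads and the cortex library 22050693, so that 1 read equalled 0.0194 CPM in SVZ and 0.0454 CPM in cortex. The ratio between areas is log2 of SVZ CPM over cortex CPM, so negative values are higher in cortex. Its 95% interval (exact, Clopper-Pearson) covers the counting error of reads only. The reads carry no molecular identifiers, so PCR copies cannot be told from independent molecules. The interval may therefore be too narrow for the counting error of molecules. With 1 library per area there was no replicate check, so the areas were not tested against each other and no p is given. A count of 0 was set at 3 reads and the ratio reported as a bound. Counts of genes at least 4-fold or 2-fold apart were taken over genes whose CPM averaged 10 or more across SVZ and cortex, called the genes tested.

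Promoter sequence was looked up for the members because most of them lay on the same side of 0. RefSeq (GRCm38.p6) gave promoters for 29 of the 38, with 37 start sites, and the 250 bases before each start were searched on both strands. The windows of 4 genes are shown (Syn1 and Syn2, because these synapsins fell on opposite sides of 0; Sncb and Syt11, because they lie near the cortex end and at the SVZ end of the order), at 1 start site each, 5′ to 3′ on the gene's own strand, with a GC box (GGGCGG) or a cyclic AMP response element (CRE, TGACGTCA) in capitals.
Syn1, chrX:20920919-20921168, minus strand: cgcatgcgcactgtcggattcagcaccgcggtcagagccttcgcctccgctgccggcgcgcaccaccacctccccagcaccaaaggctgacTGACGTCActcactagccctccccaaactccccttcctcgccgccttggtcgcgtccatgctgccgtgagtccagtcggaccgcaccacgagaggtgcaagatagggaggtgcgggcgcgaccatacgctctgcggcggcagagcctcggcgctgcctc
Syn2, chr6:115134652-115134901, plus strand: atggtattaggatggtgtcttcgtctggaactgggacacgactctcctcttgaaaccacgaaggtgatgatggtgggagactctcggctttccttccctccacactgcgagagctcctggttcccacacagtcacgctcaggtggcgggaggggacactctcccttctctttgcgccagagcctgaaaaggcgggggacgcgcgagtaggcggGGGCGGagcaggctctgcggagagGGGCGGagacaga
Sncb, chr13:54766596-54766845, minus strand: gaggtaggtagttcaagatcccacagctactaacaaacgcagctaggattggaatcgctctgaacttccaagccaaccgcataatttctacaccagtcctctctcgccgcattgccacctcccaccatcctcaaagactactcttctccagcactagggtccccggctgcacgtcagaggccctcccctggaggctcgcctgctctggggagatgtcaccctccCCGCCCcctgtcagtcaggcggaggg
Syt11, chr3:88772600-88772849, minus strand: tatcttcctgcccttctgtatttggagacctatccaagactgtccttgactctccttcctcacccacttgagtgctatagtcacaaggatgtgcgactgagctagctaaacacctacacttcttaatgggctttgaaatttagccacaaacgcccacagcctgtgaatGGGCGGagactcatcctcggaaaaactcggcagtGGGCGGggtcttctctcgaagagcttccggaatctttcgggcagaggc

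A GC box, the element bound by Sp1 and its relatives, stood in 21 of the 37 member windows (56.8%), against 32.7% of the 32851 promoter windows of the same length in the table. The windows of the members were also richer in G and C, with a median of 60.8% against 52.4%. A CRE stood in 1 member window, that of *Syn1*, and in 1.55% of all windows. The TATA box letters TATAAA were in 3 member windows (8.11%), of *Rab3b* and *Sv2b*, against 12.4% of all. GC boxes were in the windows of both *Sncb* and *Syt11*, the former on the opposite strand, although their ratios lay at opposite ends of the order. *Syn2* has a second start in RefSeq, whose window (chr6:115238744-115238993, not printed) held 0 GC boxes and 0 CREs and was 50.4% G and C, against 61.2% in the window shown. The *Syt11* window lies inside the span of the gene in GENCODE M21 (chr3:88744700-88775164). It therefore precedes a RefSeq start that is downstream of the GENCODE one. The *Syn1* window also overlaps the GENCODE span of its gene (chrX:20860511-20921004). These matches describe the letters alone.

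The presynaptic genes were higher in cortex almost throughout. Of the 38, 36 had a higher CPM in cortex and 2, *Syn2* and *Syt11*, had a higher CPM in SVZ. The intervals of *Vamp1* and *Unc13b*, which are among the 36, held 0. Of the 33 members with a mean of at least 10 CPM, 31 were higher in cortex, against 4042 of all 9027 such genes. Of the 33 tested, 16 (48.5%) were at least 4-fold higher in cortex, against 4.7% of the 9027 genes tested, and 0 were at least 4-fold higher in SVZ, against 6.75%. At 2-fold the counts were 24 in cortex, with 12.3% of all genes, and 0 in SVZ, with 14.9% of all genes, and 9 members lay within 2-fold. The median log2 ratio of the 33 was -1.96, with quartiles of -2.75 and -0.998, and that of all genes tested was 0.10. In 9 of the 33 the SVZ level alone was under 10 CPM and in 0 the cortex level was, so these 9 passed the minimum through cortex alone. Over the 9027 genes tested, 541 were under 10 CPM in SVZ and 698 in cortex. Among the 16 genes counted as 4-fold higher in cortex, 8 passed through cortex alone (*Sv2a*, *Sv2b*, *Syt7*, *Stx1a*, *Cplx1*, *Sncb*, *Rab3b* and *Bsn*). Of the 424 genes so counted among all tested, 259 did. With at least 10 CPM required in each library, a limit added after the values had been seen and one that removes genes nearly absent from SVZ, 8 of 24 members were at least 4-fold higher in cortex, against 2.12% of 7788 genes, and their median log2 ratio was -1.42. Over all 38 members, with counts of 0 at their bound, the median was -2.01. In bulk samples such as these, fewer cells of a type and less RNA per cell cannot be told apart.

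Summed over the 38 genes, SVZ held 2045 CPM and cortex 5461 CPM, which is 2.67-fold more in cortex. As a share of gene reads this was 0.204% in SVZ (95% interval 0.203 to 0.206%) and 0.546% in cortex (0.543 to 0.549%). A pair of synaptotagmins, *Syt4* and *Syt11*, carried much of both sums. Without them the sums were 981 and 3105 CPM, 3.17-fold apart, and 15 of 31 tested genes were at least 4-fold higher in cortex.

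**Figure D1:**
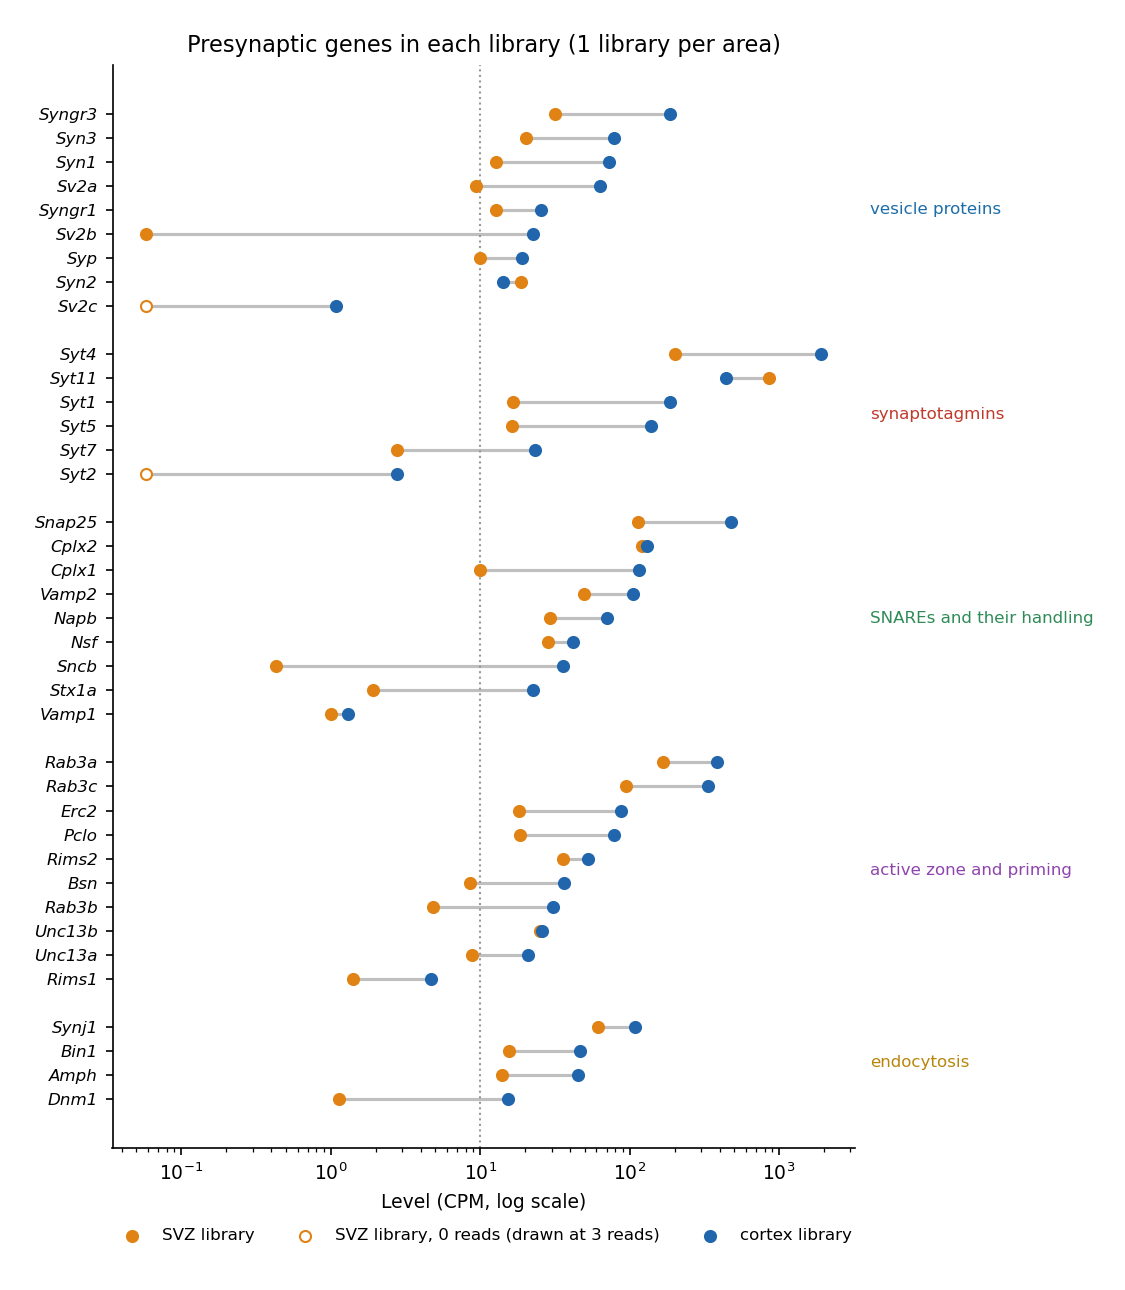
Level of each of the 38 genes in the SVZ library (orange) and the cortex library (blue), in CPM on a log axis, grouped by role and ordered by cortex level, with 1 library per area and the dotted line at 10 CPM. Open points are genes with 0 SVZ reads drawn at 3 reads, and the orange point lies to the right of the blue one only for *Syn2* and *Syt11*.

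The vesicle proteins were the first group. Of 8 tested, 4 were at least 4-fold higher in cortex, and the median log2 ratio was -2.24. The synapsins, which coat vesicles and tether them in the reserve pool, did not move together. *Syn1* (ENSMUSG00000037217.15, GRCm38 chrX:20860511-20921004) was at 12.7 CPM in SVZ and 73.1 CPM in cortex (652 and 1611 reads), and *Syn3* at 20.3 and 78.9 CPM. Both were thus lower in SVZ, with log2 ratios of -2.53 (-2.66 to -2.39) for *Syn1* and -1.96 (-2.07 to -1.85) for *Syn3*. *Syn2* (ENSMUSG00000009394.13, GRCm38 chr6:115134902-115282006) was at 18.8 CPM in SVZ and 14.3 CPM in cortex (967 and 315 reads), a log2 ratio of 0.40 (0.21 to 0.58), so it was the synapsin that was higher in SVZ. In cortex *Syn1* was 22.1 CPM per kb of exon and *Syn2* 2.03 CPM per kb, whereas in SVZ they were 3.84 and 2.67 CPM per kb.

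The SV2 glycoproteins, transporter-like membrane proteins of the vesicle, included the lowest ratio among members with reads in both libraries. *Sv2a*, the widely expressed form, was at 9.37 CPM in SVZ and 62.9 CPM in cortex, 6.71-fold higher in cortex (log2 ratio -2.75, -2.90 to -2.60). *Sv2b* was at 0.0583 CPM in SVZ, from 3 reads, and 22.7 CPM in cortex, from 501 reads. It was close to undetected in SVZ, and its log2 ratio of -8.61 has a wide interval, -10.89 to -7.05. *Sv2c* had 0 reads in SVZ and 24 reads (1.09 CPM) in cortex. With SVZ set at 3 reads (0.0583 CPM) the bound was 18.7-fold higher in cortex, a log2 ratio of -4.22. The exact interval, taken from the 0 reads counted, reached up to -3.81, so a smaller difference than that bound is within counting error. The mean of *Sv2c* was under the 10 CPM minimum.

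Synaptophysin and the synaptogyrins span the vesicle membrane with 4 helices each. *Syp* was at 10.0 CPM in SVZ and 19 CPM in cortex, a log2 ratio of -0.92 (-1.11 to -0.74). *Syngr1* was at 12.9 and 25.7 CPM, a log2 ratio of -0.998 (-1.16 to -0.83). *Syngr3*, a form found mainly in brain, was at 31.5 and 186 CPM, 5.91-fold higher in cortex. Per kb of exon *Syngr3* was the third highest member in cortex, at 90.0 CPM per kb, while *Syp*, often used as a stain for synapses, was at 3.66 CPM per kb.

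Synaptotagmins bind membranes through C2 domains, and many of them sense calcium. Of 5 tested, 4 were at least 4-fold higher in cortex, and the median log2 ratio was -3.09. *Syt1* (ENSMUSG00000035864.14, GRCm38 chr10:108497650-109010982), the calcium sensor of fast synchronous release in forebrain neurons, was at 16.5 CPM in SVZ and 187 CPM in cortex (849 and 4133 reads). The cortex level was 11.4-fold higher (log2 ratio -3.51, -3.61 to -3.40). *Syt5* was at 16.4 and 140 CPM, 8.53-fold higher in cortex. *Syt7*, a high-affinity sensor linked to slow release and vesicle supply, was at 2.76 and 23.2 CPM, 8.41-fold higher in cortex. *Syt2*, the fast sensor of hindbrain and spinal synapses, had 0 reads in SVZ and 61 reads (2.77 CPM) in cortex, and was under the minimum. With SVZ set at 3 reads the bound was 47.4-fold higher in cortex, a log2 ratio of -5.57. The exact interval, taken from the 0 reads counted, reached up to -5.23.

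*Syt4* and *Syt11*, which share an aspartate-to-serine change that weakens calcium binding by the first C2 domain, went in opposite directions. *Syt4* was at 202 CPM in SVZ and 1914 CPM in cortex (10400 and 42194 reads), 9.46-fold higher in cortex (log2 ratio -3.24, -3.27 to -3.21). *Syt11* was at 862 CPM in SVZ and 443 CPM in cortex (44329 and 9770 reads), a log2 ratio of 0.96 (0.93 to 0.99), the highest of the 38. *Syt4* made up 9.89% of all member reads in SVZ (9.71 to 10.1%) and 35.0% in cortex (34.8 to 35.3%). *Syt11* made up 42.1% in SVZ (41.8 to 42.4%) and 8.11% in cortex (7.96 to 8.27%). Per kb of exon *Syt11* was the highest member in SVZ (166 CPM per kb) and *Syt4* the highest in cortex (492 CPM per kb).

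The SNAREs and the proteins that handle them had 4 of 8 tested genes at least 4-fold higher in cortex, and a median log2 ratio of -1.66. *Stx1a*, the plasma membrane syntaxin, was at 1.91 CPM in SVZ and 22.4 CPM in cortex (98 and 495 reads), 11.8-fold higher in cortex. *Snap25*, its partner on the plasma membrane, was at 114 and 475 CPM (5841 and 10468 reads), 4.18-fold higher in cortex. *Vamp2*, the vesicle SNARE of most forebrain synapses, was at 49.6 and 105 CPM, 2.12-fold higher in cortex. The members of this fusion complex thus differed from one another in how far they were shifted. *Vamp1* was at 1.01 CPM in SVZ and 1.32 CPM in cortex (52 and 29 reads), under the minimum, and its interval (-1.06 to 0.33 around -0.38) held 0, so no difference was detectable at this depth.

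Complexins clamp and then assist the assembled SNARE complex. *Cplx1* (ENSMUSG00000033615.9, GRCm38 chr5:108518554-108550024) was at 9.90 CPM in SVZ and 116 CPM in cortex (509 and 2564 reads), a log2 ratio of -3.55 (-3.69 to -3.42). *Cplx2* (ENSMUSG00000025867.8, GRCm38 chr13:54371349-54383917) was at 121 CPM in SVZ and 131 CPM in cortex (6246 and 2882 reads), a log2 ratio of -0.11 (-0.17 to -0.04). *Cplx2* was thus nearly level between the areas, while *Cplx1* was 11.8-fold higher in cortex. Per kb of exon *Cplx1* was 53.1 CPM per kb and *Cplx2* 26.5 CPM per kb in cortex, an order that turned in SVZ, where they were 4.52 and 24.6 CPM per kb.

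*Nsf*, the ATPase that takes spent SNARE complexes apart, was at 28.4 CPM in SVZ and 42.0 CPM in cortex, 1.48-fold higher in cortex. *Napb*, the brain form of its adaptor, was at 29.2 and 70.2 CPM, 2.40-fold higher in cortex. *Sncb*, a synuclein of presynaptic terminals, was at 0.428 CPM in SVZ and 35.8 CPM in cortex (22 and 789 reads). It was 83.7-fold higher in cortex (log2 ratio -6.39, -7.07 to -5.78), the second lowest such ratio after *Sv2b*, and 0.277% of all tested genes had a lower ratio.

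**Figure D2:**
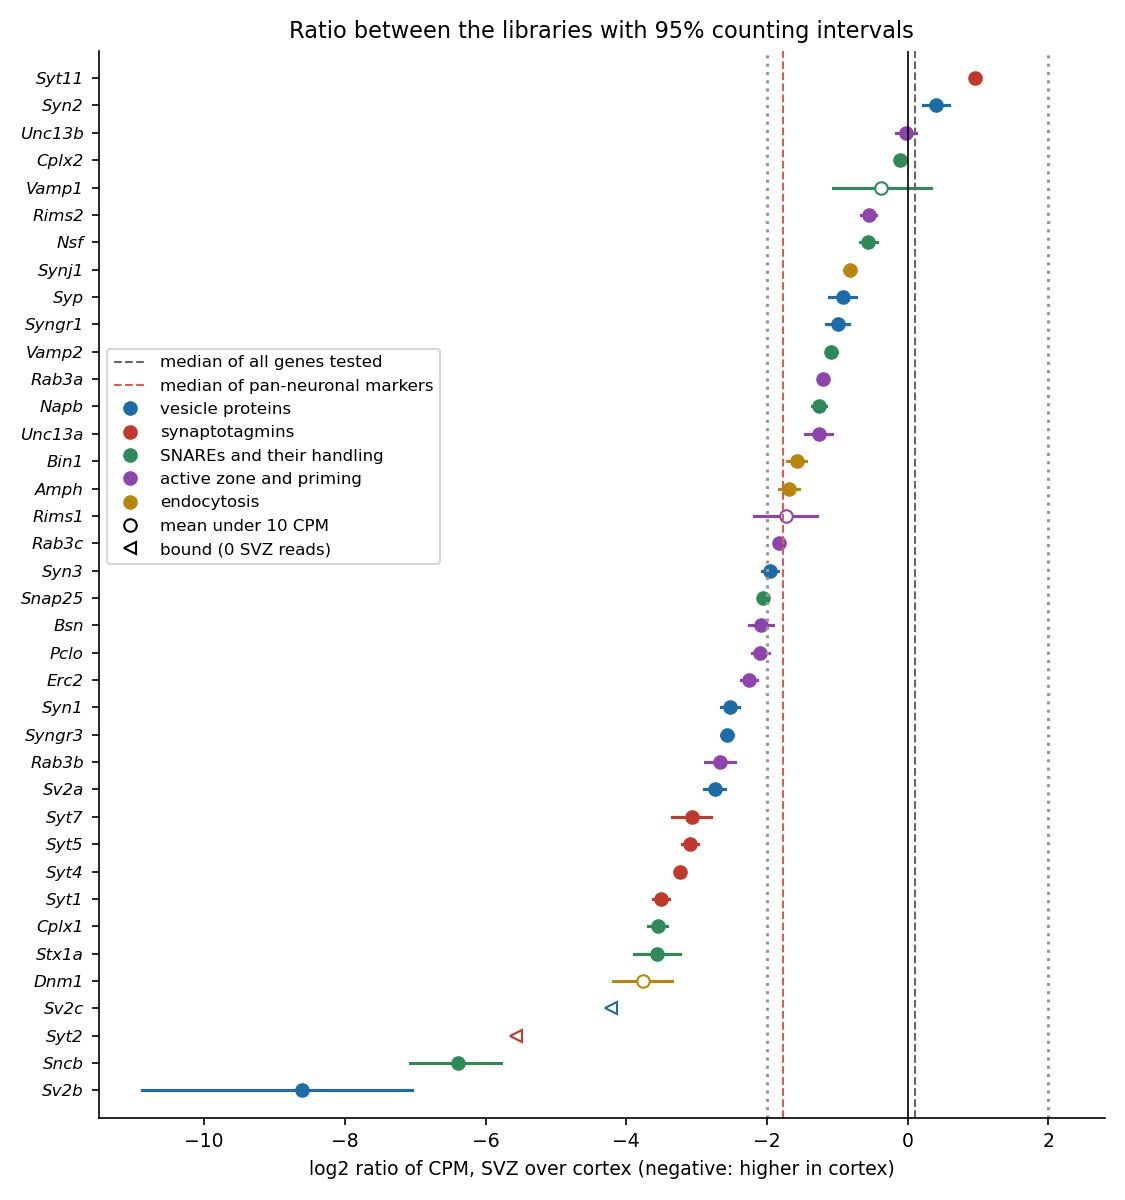
Log2 ratio of CPM, SVZ over cortex, for the 38 genes in order, coloured by role, with bars for the exact 95% counting interval; open symbols have a mean under 10 CPM, triangles are bounds, dotted lines mark 4-fold, and dashed lines mark the medians of all genes tested (0.10) and of the pan-neuronal markers (-1.77). The 16 filled points left of the lower dotted line include 4 of the 5 synaptotagmins tested, and *Syt11* stands at the other end at 0.96.

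In the active zone and priming group, 4 of 9 tested genes were at least 4-fold higher in cortex, with a median log2 ratio of -1.83. The large scaffolds *Bsn* (bassoon) and *Pclo* (piccolo) had nearly equal ratios. *Bsn* was at 8.57 CPM in SVZ and 36.5 CPM in cortex, 4.25-fold higher in cortex, and *Pclo* was at 18.5 and 78.7 CPM, 4.27-fold higher. *Erc2*, another active zone scaffold, was at 18.2 and 86.9 CPM, 4.77-fold higher in cortex. *Rims2*, which links vesicle-bound Rab3 to the release site, was at 35.9 and 52.7 CPM, 1.47-fold higher in cortex. *Rims1* was at 1.42 and 4.72 CPM (73 and 104 reads), a log2 ratio of -1.73 (-2.18 to -1.29), and was under the minimum. Among the genes nearest the 4-fold line, *Snap25*, *Bsn* and *Pclo* lay just past it and *Syn3* just short of it.

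The Munc13 proteins open syntaxin and so prime vesicles. *Unc13a*, the main form at excitatory forebrain synapses, was at 8.77 CPM in SVZ and 21 CPM in cortex (451 and 464 reads), a log2 ratio of -1.26 (-1.45 to -1.07). *Unc13b* was at 25.3 CPM in SVZ and 25.8 CPM in cortex (1302 and 568 reads). Its log2 ratio of -0.03 had an interval that held 0 (-0.17 to 0.12), so a difference was not detectable at this depth, and it was the single tested member of which that was true.

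Rab3 proteins are the small GTPases that ride on vesicles and bind RIM proteins. *Rab3a* was at 166 CPM in SVZ and 381 CPM in cortex, 2.29-fold higher in cortex. *Rab3c* was at 94.7 and 336 CPM, 3.55-fold higher, and *Rab3b* at 4.80 and 30.6 CPM, 6.37-fold higher. All 3 were lower in SVZ, and *Rab3a* was the second highest member per kb of exon in both libraries, at 74.6 CPM per kb in SVZ and 171 CPM per kb in cortex.

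In the endocytosis group 0 of 3 tested genes were at least 4-fold apart. *Synj1*, the phosphatase that helps strip clathrin from retrieved vesicles, was at 61 CPM in SVZ and 108 CPM in cortex, 1.77-fold higher in cortex. *Amph* (amphiphysin), which senses curved membrane and recruits dynamin, was at 14.1 and 45.4 CPM, 3.22-fold higher, and its relative *Bin1* was at 15.5 and 46.3 CPM, 2.99-fold higher. *Dnm1*, the neuronal dynamin that cuts vesicles from the membrane, was at 1.13 and 15.2 CPM (58 and 336 reads). *Dnm1* was 13.5-fold higher in cortex (log2 ratio -3.76, -4.18 to -3.35), but its mean of 8.18 CPM left it outside the counts above.

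Because both genes of a pair are read in the same 2 libraries, the difference between their log2 ratios does not depend on how the libraries are scaled. Of 20 pairs of paralogues among the members, 16 gave a value and 4 did not, since *Syt2* or *Sv2c* had 0 reads in SVZ. The exact 95% interval of the difference excluded 0 in 14 of the 16, and 9 differed by more than 1 on the log2 scale. Counting intervals are narrow at this depth, and that of a gene's own ratio held 0 in only 969 of the 9027 genes tested. Pairs of other genes were not compared, so no share over all genes stands beside the 14. The widest were *Sv2a* against *Sv2b* (5.86, 4.29 to 8.15), *Syt4* against *Syt11* (-4.20, -4.25 to -4.16), *Cplx1* against *Cplx2* (-3.45, -3.60 to -3.30) and *Syn1* against *Syn2* (-2.92, -3.15 to -2.69).

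Smaller shifts were seen in the other pairs. *Syn2* was shifted towards SVZ relative to *Syn3* by 2.36 (2.14 to 2.57), *Syngr1* relative to *Syngr3* by 1.57 (1.38 to 1.75) and *Rab3a* relative to *Rab3b* by 1.47 (1.26 to 1.69). *Unc13a* was shifted towards cortex relative to *Unc13b* (-1.24, -1.48 to -0.998), and *Rims1* relative to *Rims2* (-1.18, -1.64 to -0.72). Differences under 1 were found for *Rab3b* against *Rab3c* (-0.84), *Vamp1* against *Vamp2* (0.71, with an interval of 0.02 to 1.42), *Rab3a* against *Rab3c* (0.63), *Syn1* against *Syn3* (-0.57) and *Syt1* against *Syt5* (-0.41). In 2 pairs the interval held 0. These were *Bsn* against *Pclo*, where it ran from -0.20 to 0.21, and *Amph* against *Bin1*, where it ran from -0.30 to 0.09.

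A further 10 pairs set a gene known mainly from neurons against a paralogue that many cell types express. They were chosen after the values had been seen, so their direction is a description. In 10 of 10 the neuronal gene was the one shifted towards cortex, by 1.04 to 4.93 on the log2 scale. *Vamp2* was shifted relative to *Vamp3* by -3.74 (-3.92 to -3.56), *Snap25* relative to *Snap23* by -3.65 (-3.83 to -3.48) and *Stx1a* relative to *Stx4a* by -4.93 (-5.39 to -4.47). Some of these partners were themselves higher in SVZ. *Snap23* was at 45.0 CPM in SVZ and 15.0 CPM in cortex, and *Stx4a* at 10.9 and 4.22 CPM. *Napb* against *Napa* was the smallest of the 10 (-1.04, -1.15 to -0.93), and for *Dnm1* against *Dnm2* the difference was -3.43 (-3.88 to -2.99). *Dnm2* overlaps another gene, and with the stranded sums the difference from *Dnm1* was -3.88 (-4.33 to -3.46).

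**Figure D3:**
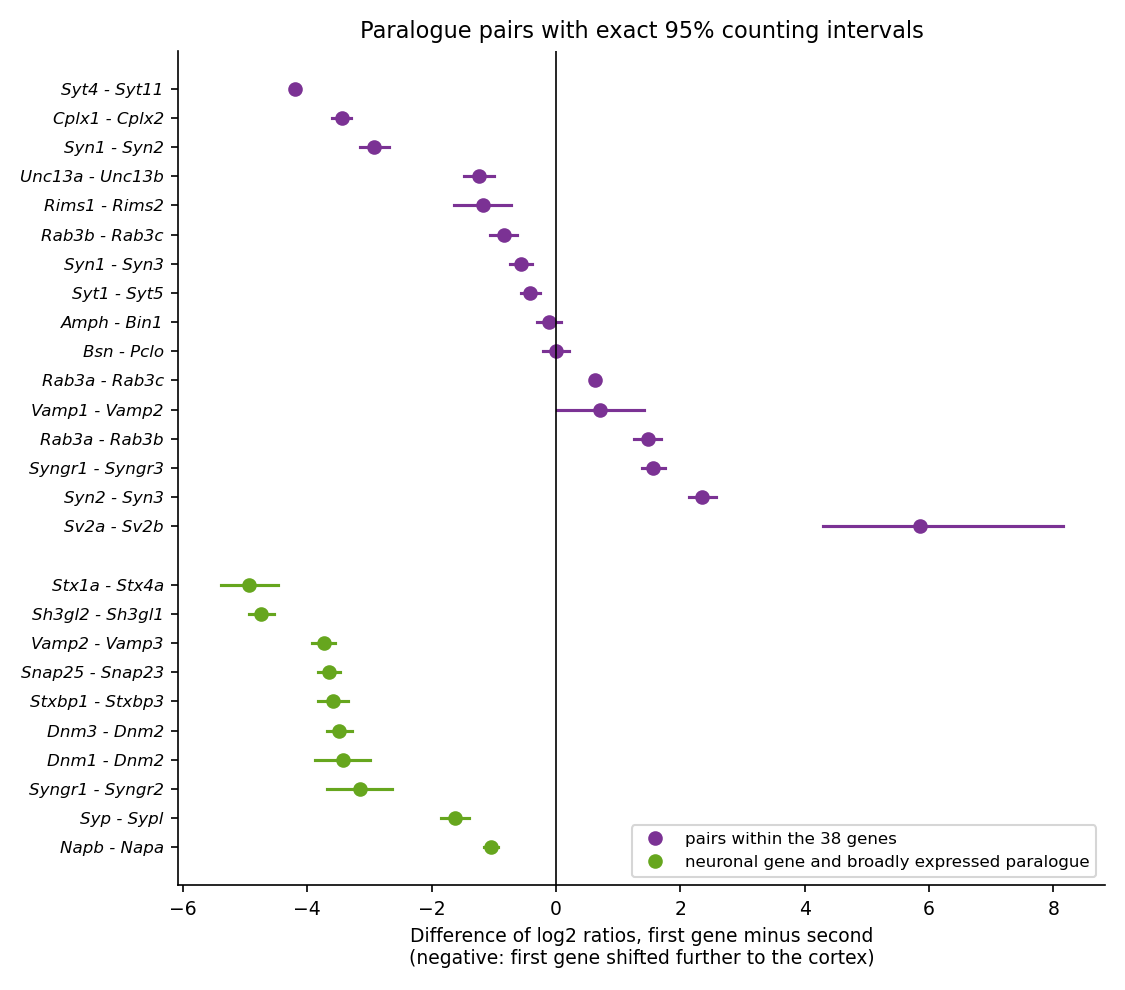
Difference of log2 ratios within paralogue pairs, first gene minus second, with exact 95% counting intervals: purple, the 16 pairs within the 38 genes that gave a value, and green, the 10 pairs of a neuronal gene with a broadly expressed paralogue, chosen after the values had been seen. All 10 green points lie below 0, between -4.93 and -1.04, and the purple ones run from -4.20 to 5.86.

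Other genes of the presynapse were shifted less as a list. Of 108 listed, 107 had a row and 65 were tested. Of those 65, 6 (9.23%) were at least 4-fold higher in cortex, against 4.7% of all genes tested, and 5 (7.69%) at least 4-fold higher in SVZ, a share near the 6.75% of all genes. Within 2-fold lay 39 (60.0%), against 72.8% of all genes, and the median log2 ratio was -0.44. Of the 6 at least 4-fold higher in cortex, 5 passed the minimum through cortex alone. With at least 10 CPM required in each library, 1 of 54 (1.85%) was at least 4-fold higher in cortex, near the 2.12% of 7788 genes. The list holds many genes that also serve endocytosis, membrane traffic or acidification outside neurons.

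The 5 of these 65 furthest towards cortex were ranked by the end of the interval nearer to 0, and genes with a mean under 10 CPM were not ranked. *Sh3gl2* (endophilin A1, which bends membrane during retrieval) was at 6.45 CPM in SVZ and 192 CPM in cortex, 29.7-fold higher in cortex. *Dnm3*, another dynamin, was at 9.37 and 132 CPM, 14.1-fold higher. *Rph3a* (rabphilin, a Rab3 effector) was at 2.29 and 24.1 CPM, 10.5-fold higher, and *Dnajc6* (auxilin, which uncoats clathrin vesicles in neurons) was at 9.99 and 70.4 CPM, 7.04-fold higher. *Syt6* was at 7.97 and 91.4 CPM (410 and 2016 reads), 11.5-fold higher. By the sum of the stranded counts *Syt6* had 882 and 2077 reads and was 5.51-fold higher (log2 ratio -2.46), which would take it out of the first 5. These 5 were all lower in SVZ by either count. By the unstranded count all 5 were under 10 CPM in SVZ, so they passed the minimum through cortex alone.

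The 5 of the 65 furthest towards SVZ were ranked the same way, again without genes under the minimum. *Synpr* (synaptoporin, a relative of synaptophysin) was at 22.3 CPM in SVZ and 0.862 CPM in cortex (1145 and 19 reads), 25.8-fold higher in SVZ. *Slc17a6* (VGLUT2, which loads glutamate into vesicles) was at 151 and 35.5 CPM, 4.26-fold higher in SVZ. *Vamp3* (cellubrevin, a SNARE of recycling endosomes) was at 97.5 and 15.5 CPM, 6.29-fold higher, *Stxbp3* (Munc18c) at 31.4 and 7.35 CPM, and *Pacsin3* at 29.9 and 5.31 CPM. Thus genes of vesicles proper, *Synpr* and *Slc17a6*, stood among those higher in SVZ, as *Syn2* and *Syt11* did among the members. Of the 5, *Synpr*, *Stxbp3* and *Pacsin3* were under 10 CPM in cortex, so they passed the minimum through SVZ alone.

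**Figure D4:**
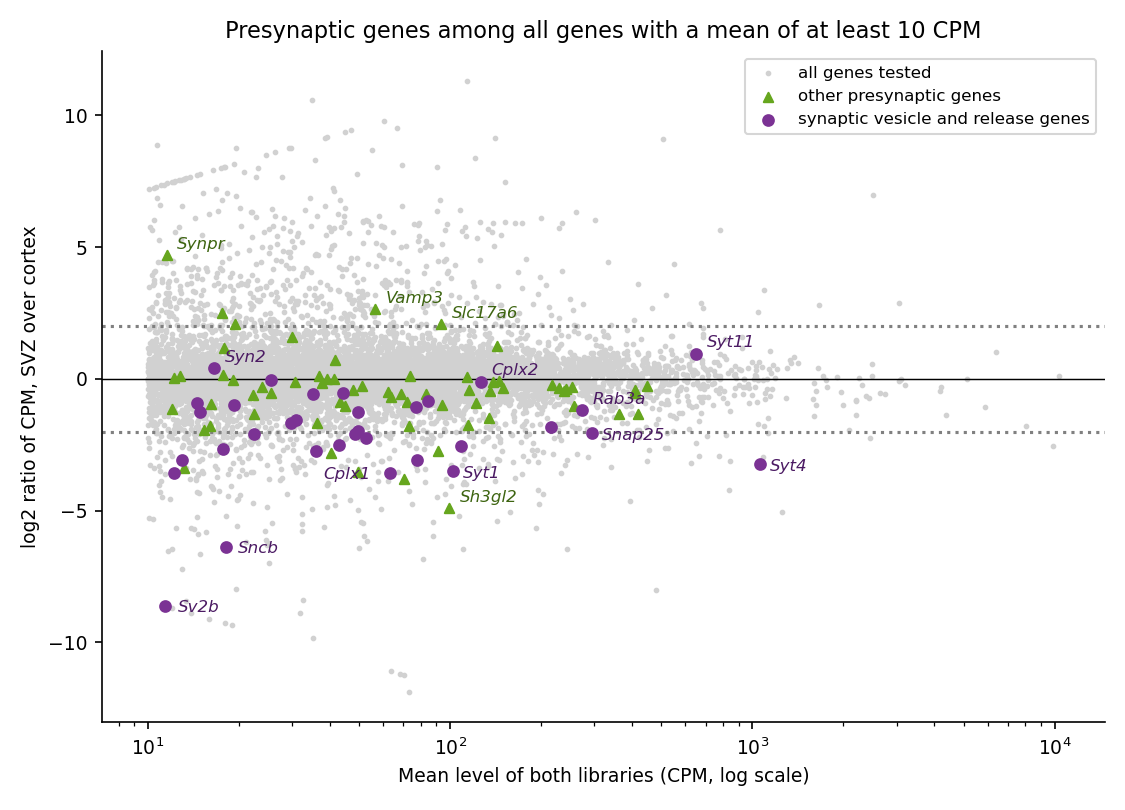
Mean level of both libraries in CPM (log axis) against the log2 ratio of CPM, SVZ over cortex, for the 9027 genes tested (grey), the 65 other presynaptic genes tested (green triangles) and the 33 synaptic vesicle and release genes tested (purple), with dotted lines at 4-fold and counts of 0 set at 3 reads. The purple points lie mostly below 0, with 16 below the lower dotted line and 0 above the upper one.

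Markers of neurons moved in the same direction as the presynaptic genes. Of 12 pan-neuronal markers, among them *Tubb3*, *Map2* and *Mapt*, 11 were higher in cortex and 1 in SVZ. The 1 higher in SVZ was *Elavl4*, at 499 CPM in SVZ and 166 CPM in cortex (log2 ratio 1.58, 1.53 to 1.63). Log2 ratios of the markers tested ran from -4.29 to 1.58. Their summed level was 3062 CPM in SVZ and 10499 CPM in cortex, 1 of the 12 (*Nefl*, named here for that count after the values were seen) had 0 reads in SVZ while every one had reads in cortex, and the median log2 ratio of the 11 tested was -1.77. Set against that median instead of 0, 15 of the 33 tested presynaptic genes lay above it and 18 below, 19 of them within 2-fold, and the median of the 33 was -0.19. At least 4-fold beyond it towards cortex were 2 genes, *Sv2b* (-6.83) and *Sncb* (-4.61), and at least 4-fold beyond it towards SVZ were 2 genes, *Syt11* (2.73) and *Syn2* (2.17). The other 14 of the 16 genes counted above as 4-fold higher in cortex lay less than 4-fold below it, from *Stx1a* (-1.79) to *Snap25* (-0.29).

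Of 5 excitatory neuron markers, 5 were higher in cortex, with a median of -2.11, and of 5 inhibitory neuron markers 4 were higher in SVZ, with a median of 0.38. Of those 4, *Dlx2* was at 6.18 CPM in SVZ and 6.03 CPM in cortex, and its interval held 0 (-0.26 to 0.34). Its mean was under 10 CPM. Markers of dividing cells were higher in SVZ. The 8 apical progenitor markers summed to 6529 CPM in SVZ and 130 CPM in cortex, and the 5 of intermediate progenitors and proliferation to 1412 and 18.8 CPM. The 3 astrocyte markers had 0 reads in cortex and 58.6 CPM in SVZ, most of it from *Aldh1l1* (52.8 CPM). *Aqp4* and *Gfap*, at 3.73 and 2.04 CPM in SVZ, had means under 10 CPM. The 3 microglia markers summed to 15.9 and 2.86 CPM. Of the 3 erythroid markers, 2 had 0 reads in both libraries, but these globin genes have near-identical copies whose shared reads are not counted, so erythroid RNA cannot be judged from them, and *Hbb-y* was at 0.331 and 0.363 CPM. The 3 endothelial markers summed to 59.3 and 45.2 CPM. What part these differences in cell make-up had in the presynaptic ratios was not tested.

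The counts ignore strand, and reads that fall on overlapping genes are left out. Summing the stranded counts instead raised *Rab3b* by 5.67% in SVZ and 8.31% in cortex, *Rab3a* by 1.92% and 0.80%, *Syn1* by 1.53% and 0.87%, and *Sv2b* by 0% and 1.20%, and the other members by less than 1% in each library.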

How the data were processed

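The files hold raw counts of reads for each gene, made by the authors by trimming with cutadapt 4.1 and mapping read 1 to mm10 with STAR 2.7.9a. STAR leaves out reads that map to several places or overlap several genes, so overlapping genes and near-identical copies are undercounted. The library kit does not mark strand, and the unstranded column was used. The authors' table of CPM, fold change and log10 ratio was not used.

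CPM was computed on gene reads, 59.0% of reads in SVZ and 59.1% in cortex. The 4 summary lines were left out. Members and lists were chosen with earlier results of these data known. Named genes were the members, the 5 other presynaptic genes per direction with the interval end furthest from 0, and at most 3 markers per list. *Nefl*, *Elavl4* and *Dlx2* were named after the values had been seen. The added paralogues were chosen after the values had been seen.

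Exon lengths (merged exons) came from GENCODE M21 and promoters from RefSeq, on GRCm38. Pair differences are log2 odds ratios with exact conditional intervals. Alternatives were TMM and upper-quartile factors (edgeR 4.0.16), size factors from DESeq2 1.42.0, stranded sums, totals leaving out the 10 genes with the most reads, thinning, a pseudocount of 1 CPM, other minimums and folds, and centring on length or pan-neuronal markers. The steps were tested on simulated data. Software was matplotlib 3.10.9, pandas 2.3.3, scipy 1.17.1 and numpy 2.4.6 on Python 3.11.15, with R 4.3.3.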

Additional observations from a re-analysis of the deposited data

Results flagged for a closer look

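*Baiap3*, a relative of the Munc13 priming factors on the list of other presynaptic genes, had 6 reads in SVZ and 0 in cortex when strand was ignored. The stranded columns, which the report uses only as an alternative count, held 856 reads in SVZ and 250 reads in cortex for it. Its exons overlap those of *Tsr3*, and the kit does not mark strand, so these reads cannot be assigned to either gene.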

How the results depend on the processing

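The count of genes at least 4-fold higher in cortex was 16, and it fell to 2 when ratios were centred on the pan-neuronal median, which also raised the count at least 4-fold higher in SVZ from 0 to 2 and moved the median log2 ratio from -1.96 to -0.19. By construction that setting takes out the median shift of neuronal markers, and 15 of the 38 genes changed sign under it. Requiring 10 CPM in each library, added after the data were seen, gave 8 genes and a median of -1.42, and 3 other presynaptic genes at least 4-fold apart. Under the other scalings, minimums, pseudocount and interval rule the count at 4-fold was 14 to 19. The genes gained were *Syn3*, *Dnm1*, *Syt2* or *Sv2c* and those lost *Bsn* or *Pclo*. *Unc13b* changed sign with thinning (0.03) and length centring (0.19). Of the other presynaptic genes 11 were at least 4-fold apart, against 22 with a minimum of 1 CPM, 26 with no minimum and 26 at 2-fold. All 16 pair differences kept their direction and their side of 0 with stranded sums and with thinning. TMM, DESeq2 and upper-quartile scaling lowered every log2 ratio by 0.09 to 0.10. No paired analysis was possible because SVZ and cortex were sampled with 1 library apiece. Depth limits *Sv2b*, *Sv2c* and *Syt2*, which had 3, 0 and 0 reads in SVZ.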
